A study of Mus musculus with 8 samples.

Results

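Genes of glutathione metabolism, the peroxiredoxin and thioredoxin systems and the wider antioxidant defence were followed through ERRα ChIP-seq peak lists of mouse skeletal muscle and liver. A gene belonged to the set when its name began with Gst, Mgst, Gpx, Prdx or Txn, or was *Sod1*, *Sod2*, *Sod3*, *Cat*, *Gclc*, *Gclm*, *Gss*, *Gsr*, *Glrx*, *Glrx2*, *Nfe2l2*, *Keap1*, *Nqo1*, *Hmox1* or *Srxn1*. Such names were given to peaks for 66 of 19188 gene names found across the 4 lists, and 64 of the 66 had a peak within 20 kb of their transcription start site (TSS), the distance at which a gene is called bound here. The share of all gene names bound in any list was not computed, so 64 of 66 does not set these genes apart. The rule reads names, so it also takes in thioredoxin-domain proteins that are not antioxidant enzymes, such as *Txnl4a*, a component of the spliceosome. The members that met the rule in the RefSeq annotation but had no peak within 20 kb in any list were *Glrx2*, *Gpx6*, *Gsr*, *Gsta4*, *Gstp1*, *Prdx4*, *Txndc17*, *Txndc8*, *Txndc9* and *Txnl4b*.

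Wild-type (WT) mice were compared with ERRα 3SA mice, in which 3 serines of ERRα can no longer be phosphorylated. All mice were males of the C57BL/6N strain aged 2 to 3 months. Gastrocnemius and soleus from 5 mice, or liver from 2 mice, were pooled for each genotype, and by the labels 3 immunoprecipitations were combined into each sample. Each genotype and tissue thus gave 1 library and 1 list, with 25427 peaks in WT muscle against 50647 in ERRα 3SA muscle, and 21813 in WT liver against 29040 in ERRα 3SA liver. There is no replicate, so no difference between lists was tested, and all intervals below are 95% Wilson intervals that cover counting error only. A peak is described by its score, given by the authors' peak caller with input DNA as control, and by its rank within its own list, where the top 1% holds the highest scores. Scores of different lists are given side by side and were not compared. Read numbers are not part of the lists, and the depth behind them is therefore unknown.

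ERRα is an orphan nuclear receptor that binds extended sites of the form TCAAGGTCA, the ERR response element (ERRE), and is known for driving mitochondrial genes in muscle and liver. Respiration releases superoxide, which superoxide dismutases turn into hydrogen peroxide, and peroxide is then removed by catalase, by glutathione peroxidases that consume glutathione, or by peroxiredoxins that are recharged by thioredoxin and its reductases. Many genes of these systems are activated by NRF2, the product of *Nfe2l2*, through antioxidant response elements.

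An exact ERRE lay in the central 300 bp of a member peak at 11 of the 195 distinct sites. The sequences at 8 of these sites are shown as examples, and those at *Gpx5*, *Gstm6* and *Txndc5* are not. The *Txn2*, *Txnrd2*, *Srxn1* and distal *Nfe2l2* elements fell in the central 300 bp in a single list only. The sequences were read from GRCm38, the build of the lists, and are written 5′ to 3′ on the strand that carries the element, with the ERRE in capitals.
*Gpx4* promoter (chr10:80053115-80053175): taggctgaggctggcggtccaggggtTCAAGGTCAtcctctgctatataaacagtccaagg
*Gpx4* upstream (chr10:80051493-80051553): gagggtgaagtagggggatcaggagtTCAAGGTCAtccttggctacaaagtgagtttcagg
*Nfe2l2* first intron (chr2:75697420-75697480): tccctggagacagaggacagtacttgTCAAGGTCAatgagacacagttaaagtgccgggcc
*Nfe2l2* first intron, distal (chr2:75687254-75687314): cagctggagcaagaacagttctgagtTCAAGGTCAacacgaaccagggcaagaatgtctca
*Txn2* 3′ end (chr15:77914052-77914112): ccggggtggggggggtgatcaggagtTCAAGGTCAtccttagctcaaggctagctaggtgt
*Txnrd2* upstream (chr16:18425075-18425135): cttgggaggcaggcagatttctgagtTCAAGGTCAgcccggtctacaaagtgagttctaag
*Srxn1* first intron (chr2:152106015-152106075): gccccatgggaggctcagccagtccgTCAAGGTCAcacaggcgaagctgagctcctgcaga
*Gstp2* upstream (chr19:4046844-4046904): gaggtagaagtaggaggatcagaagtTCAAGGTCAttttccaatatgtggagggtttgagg
The *Srxn1* and *Gstp2* elements lie on the minus strand and the others on the plus strand. The authors' annotation puts the centres of some peaks at the upstream *Gpx4* site and at the *Gstp2* site on a SINE repeat of the ID_B1 type, and the sequences of these sites had 44 of 61 letters in common, or 72.1%. The upstream *Gpx4* sequence also had 68.9% of its letters in common with the *Gpx4* promoter, 62.3% with *Txn2* and 60.7% with *Txnrd2*. With the *Srxn1* sequence and those of *Nfe2l2* it had 31.1 to 45.9%. Whether these flanks come from a repeat was not tested. A pair of further members ranked high in liver over a variant of the element in which the second letter differs, and these are written in the same way with the variant in capitals.
*Gss* intron (chr2:155585234-155585294): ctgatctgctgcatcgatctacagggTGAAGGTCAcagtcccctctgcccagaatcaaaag
*Gstt1* upstream (chr10:75804320-75804380): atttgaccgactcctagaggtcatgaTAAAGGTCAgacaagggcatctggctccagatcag

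In each tissue more members were bound in the longer ERRα 3SA list. In WT muscle 33 of the 66 members were bound (50%, interval 38.3 to 61.7%), beside 45.1% of all named genes. In ERRα 3SA muscle 44 members were bound (66.7%, 54.7 to 76.8%), beside 63.5% of all genes. Over the RefSeq coding names, a base chosen after seeing the data that includes genes named in no list, 44.6% of 74 members and 33.6% of all names were bound in WT muscle, and 59.5% and 46.6% in ERRα 3SA muscle. The gap between members and all genes in muscle thus depended on the base. In WT liver 34 were bound (51.5%, 39.7 to 63.2%), beside 39.2% of all genes, and in ERRα 3SA liver 45 were bound (68.2%, 56.2 to 78.2%), beside 49.2%. In liver the share of members was higher than that of all genes on both bases (45.9% beside 29.1% in WT and 60.8% beside 36.6% in ERRα 3SA over RefSeq names), although members in gene clusters have neighbouring sites and are not independent of each other. When all lists were cut to the 21813 highest-scoring peaks, the length of the shortest list, the bound members numbered 29 in WT muscle versus 28 in ERRα 3SA muscle, and 34 in WT liver versus 36 in ERRα 3SA liver, beside 40.3%, 37.9%, 39.2% and 40.9% of all genes. The cuts fell within tied scores (30 in WT muscle, 36 in ERRα 3SA muscle and 37 in ERRα 3SA liver). Tied peaks were kept in list order, so these counts depend in part on that order. The larger number in ERRα 3SA muscle was not seen with this cut.

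**Figure D1:**
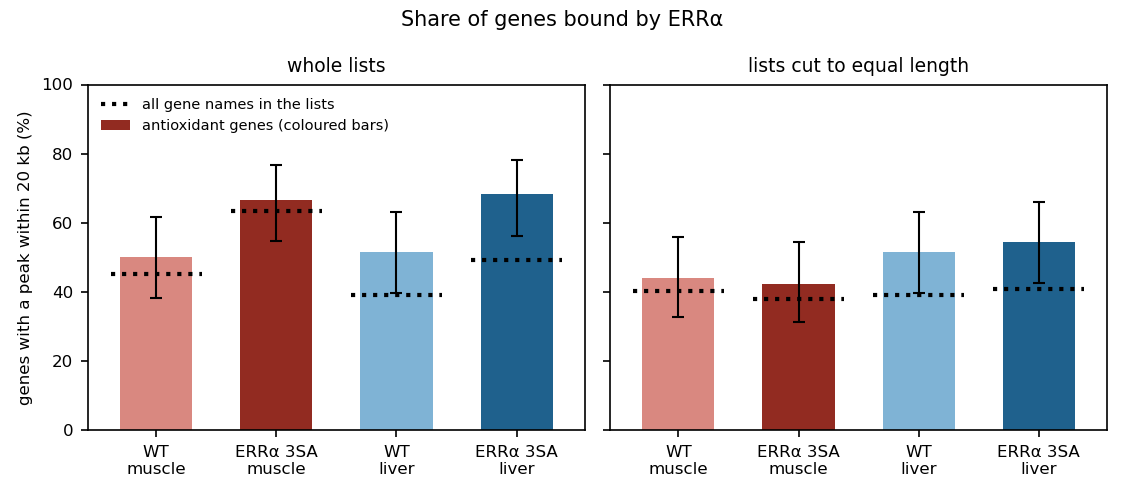
Share of antioxidant genes with an ERRα peak within 20 kb of the TSS (bars, % of 66 genes, with 95% Wilson intervals) and share of all 19188 named genes (dotted lines) in each list, for whole lists on the left and for lists cut to the 21813 highest-scoring peaks on the right. With whole lists the bars of the ERRα 3SA lists are the higher ones in both tissues, and with equal lengths the muscle bars stand at 43.9% for WT and 42.4% for ERRα 3SA. Tied peaks at the cut were kept in list order.

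Between genotypes of muscle, 23 members were bound in both lists (34.8%, beside 33.3% of all genes), 21 in ERRα 3SA alone (31.8%, beside 30.2%) and 10 in WT alone (15.2%, beside 11.8%). At equal list length, with tied peaks kept in list order, the muscle numbers were close, 11 members in WT alone against 10 in ERRα 3SA alone. In liver 28 members were bound in both genotypes (42.4%, interval 31.2 to 54.4%, beside 29.3% of all genes), 17 in ERRα 3SA alone (25.8%, beside 19.9%) and 6 in WT alone (9.09%, beside 9.84%). Across tissues, 17 members were bound in all 4 lists (25.8%, 16.7 to 37.4%, beside 16% of all genes), 10 in liver of either genotype but in neither muscle list (15.2%, beside 13.2%), and 13 in muscle only (19.7%, 11.9 to 30.8%, beside 29.5%). The members bound in all 4 lists were *Gclc*, *Glrx*, *Gpx1*, *Gpx2*, *Gpx4*, *Gsta1*, *Gsta2*, *Gstm1*, *Gstm6*, *Gstp2*, *Gstt2*, *Nfe2l2*, *Prdx2*, *Sod2*, *Srxn1*, *Txn2* and *Txndc11*. A gene can be bound in several lists through different sites, and only 10 sites at 8 of these genes (*Glrx*, *Gpx2*, *Gpx4*, *Gstt2*, *Nfe2l2*, *Prdx2*, *Txn2* and *Txndc11*) held a peak in all 4.

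High ranks were more frequent among members in liver than in muscle. The best peak of a member lay in the top 10% of its list for 4 members in WT muscle (6.06%, beside 7.51% of all genes) against 9 in ERRα 3SA muscle (13.6%, beside 12.7%), and 10 in WT liver (15.2%, interval 8.44 to 25.7%, beside 6.61%) against 12 in ERRα 3SA liver (18.2%, 10.7 to 29.1%, beside 8.73%). Among bound genes the median rank of the best peak was the top 24.6% for members and 39.1% for all genes in WT muscle, 28.5% and 37.6% in WT liver, 23.7% for both in ERRα 3SA muscle, and 34% for both in ERRα 3SA liver. Of the member peaks, 2 of 46 in WT muscle versus 5 of 77 in ERRα 3SA muscle, and 15 of 62 in WT liver versus 24 of 87 in ERRα 3SA liver scored at least 100. These were 4.35%, 6.49%, 24.2% and 27.6% of the member peaks, beside 6.13%, 6.76%, 20.2% and 22.5% of all peaks within 20 kb. In muscle many peaks were at the lowest score of 30, namely 14 of 46 member peaks in WT and 27 of 77 in ERRα 3SA, and such peaks share the top 66.4% in WT and 64.8% in ERRα 3SA because ties were given the best rank.

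**Figure D2:**
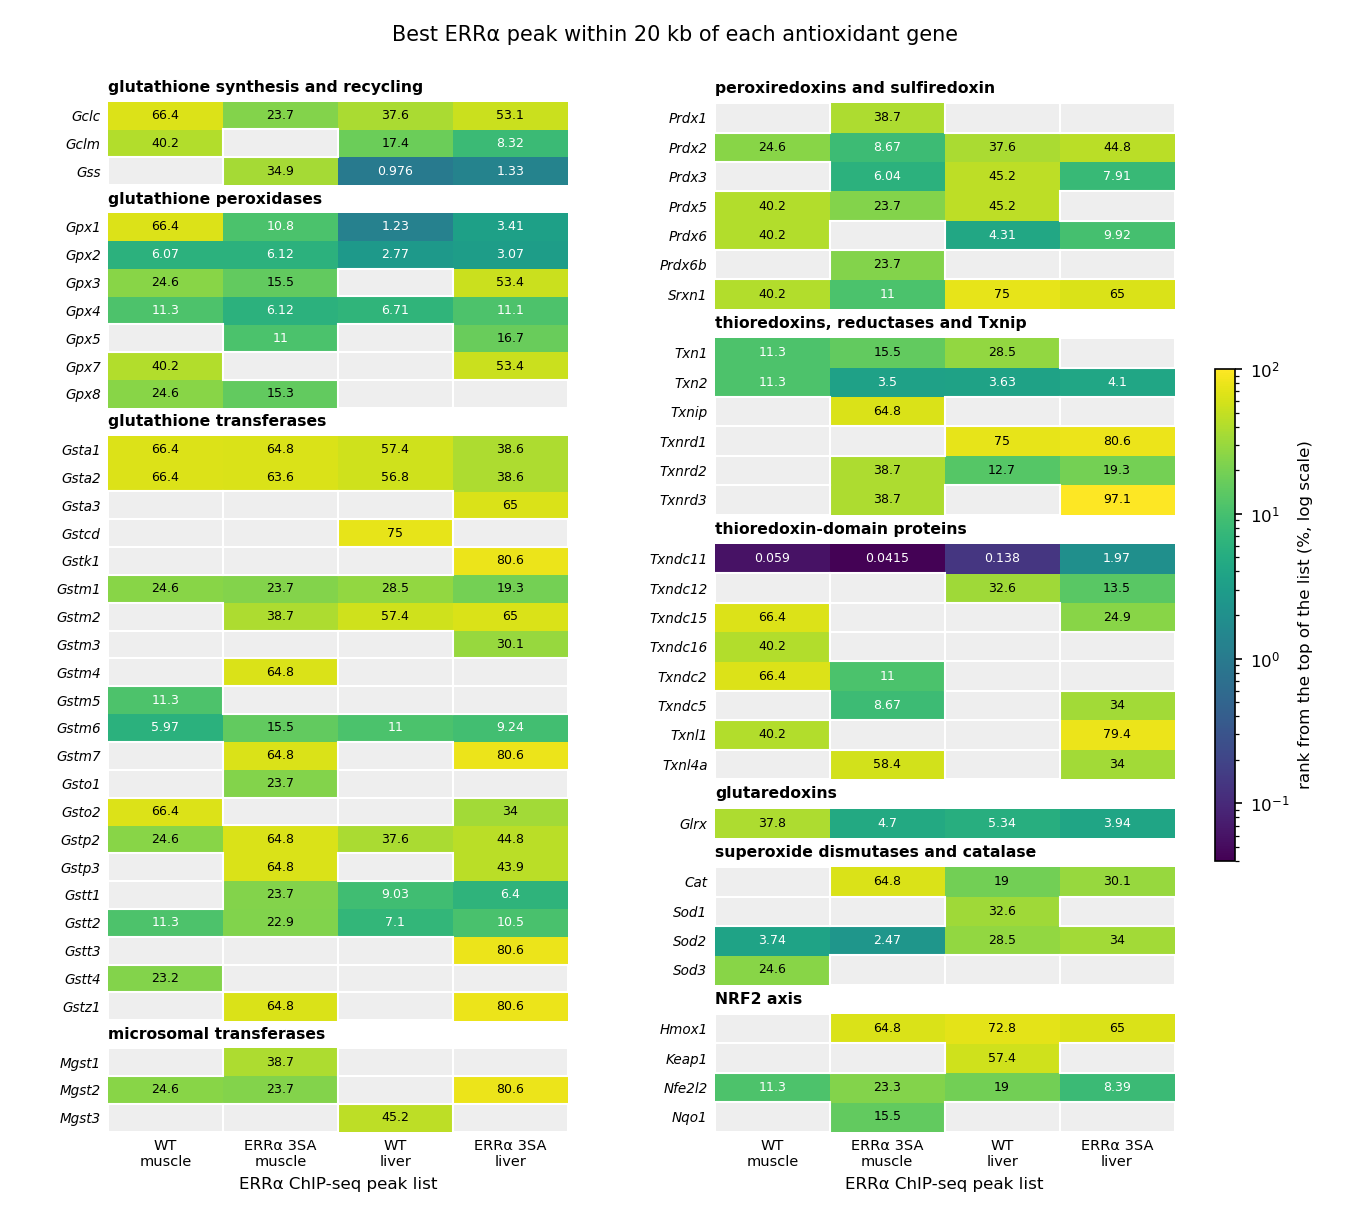
Best ERRα peak within 20 kb of each of the 64 bound antioxidant genes, grouped by role, in the 4 lists. Numbers and colours (log scale) give the rank as a percentage from the top of the list and grey cells have no peak within 20 kb. *Txndc11*, *Gpx2*, *Gpx4* and *Txn2* are in the top 11.3% of every list, *Gss* and *Gpx1* reach the top 0.976% and 1.23% in WT liver, and *Sod2* reaches the top 2.47% in muscle.

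The genes of glutathione synthesis differed in where they ranked best. *Gss*, which encodes the enzyme of the last step of glutathione synthesis, had a peak in its first intron, 7635 bp (WT liver) or 7480 bp (ERRα 3SA liver) downstream of the TSS. It scored 712 in WT liver (rank 213, top 0.976%) against 707 in ERRα 3SA liver (rank 386, top 1.33%). The interval in ERRα 3SA muscle over the same site scored 41 (top 34.9%), and WT muscle had no *Gss* peak within 20 kb. *Gss* was therefore in the highest ranks of both liver lists and of neither muscle list.

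The subunits of glutamate-cysteine ligase, the rate-limiting enzyme of the pathway, differed from each other. *Gclc*, the catalytic subunit, was bound in all 4 lists, at the top 66.4% in WT muscle against 23.7% in ERRα 3SA muscle, and 37.6% in WT liver against 53.1% in ERRα 3SA liver. The peak 12736 bp upstream of *Gclc* was shared by ERRα 3SA muscle and both liver lists. *Gclm*, the modifier subunit, had its best peak 9682 bp upstream in ERRα 3SA liver, with a score of 215 (top 8.32%), and the same site scored 97 in WT liver (top 17.4%). WT muscle held a *Gclm* peak 590 bp downstream of the TSS with a score of 36 (top 40.2%), and ERRα 3SA muscle held none within 20 kb. *Gsr*, which encodes glutathione reductase, was named only for a peak beyond 20 kb.

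All 7 glutathione peroxidases named in the lists were bound in at least 1 list, a share that was not computed over all genes. By list, 6 were bound in WT muscle against 6 in ERRα 3SA muscle, and 3 in WT liver against 6 in ERRα 3SA liver. Of all genes, 45.1%, 63.5%, 39.2% and 49.2% were bound in these lists. *Gpx4*, which reduces lipid hydroperoxides and protects membranes, had the most peaks of any member, 21 at 11 sites. The promoter peak of *Gpx4*, whose ERRE lies at -420 bp from the TSS, scored 36 in WT muscle (top 40.2%) versus 71 in ERRα 3SA muscle (top 8.2%), and 151 in WT liver (top 10.3%) versus 116 in ERRα 3SA liver (top 17.6%). The exact element was within the central window in all 4 lists. A peak upstream of it, with an ERRE at -2042 bp from the TSS, scored 57 in WT muscle (top 11.3%) against 82 in ERRα 3SA muscle (top 6.12%), and 212 in WT liver (top 6.71%) against 168 in ERRα 3SA liver (top 11.1%). In ERRα 3SA muscle this second element lay inside the interval but outside its central 300 bp. *Gpx4* thus had the same pair of element-bearing sites in both tissues and both genotypes. Farther *Gpx4* peaks lay within the neighbouring gene *Sbno2*, and the site farthest downstream was closer to a TSS of *Sbno2* (3186 bp) than to that of *Gpx4* in the RefSeq annotation.

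*Gpx1*, the most widely expressed glutathione peroxidase, had its best peak at the transcription end site, 2243 bp downstream of the TSS in WT liver. The peak scored 627 in WT liver (rank 269, top 1.23%), 403 in ERRα 3SA liver (rank 991, top 3.41%) and 59 in ERRα 3SA muscle (top 10.8%). WT muscle had no peak at this site, and its single *Gpx1* peak, in an intron of the gene, was at the lowest score (top 66.4%). *Gpx2*, best known from the gut epithelium, was in the top ranks of every list through an intergenic site 11158 to 11270 bp downstream of its TSS, with scores of 81 in WT muscle (top 6.07%) versus 82 in ERRα 3SA muscle (top 6.12%), and 390 in WT liver (top 2.77%) versus 429 in ERRα 3SA liver (top 3.07%). The next coding TSS to this site, that of *Churc1*, was 18746 bp away. The genotypes of each tissue placed *Gpx2* at close top percentages.

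Other peroxidases were bound in fewer lists. *Gpx3*, the plasma form, had 9 peaks in the muscle lists and 1 in ERRα 3SA liver, each at a different site by the distance between centres. At the transcription end site the WT muscle and ERRα 3SA muscle intervals nevertheless overlapped. The members *Gpx5*, *Gpx7* and *Gpx8* were each bound in 2 lists. *Gpx5*, an epididymal form, was bound in both ERRα 3SA lists and in neither WT list, at different sites, with a score of 57 in muscle (top 11%) and of 119 in liver (top 16.7%). The liver peak, 8424 bp upstream of the TSS, contained an exact ERRE. In WT liver a peak named for *Gpx5* lay 21296 bp from the TSS, just beyond the limit.

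The glutathione transferases, which conjugate glutathione to electrophiles, form the largest group. Of 21 named, 9 were bound in WT muscle against 13 in ERRα 3SA muscle, and 9 in WT liver against 16 in ERRα 3SA liver, and 6 in all 4 lists, beside 45.1%, 63.5%, 39.2% and 49.2% of all genes in these lists and 16% in all 4. Many are tandem copies of similar sequence, so the assignment of a peak to the nearest TSS within a cluster, and reads mapped within it, are less certain than elsewhere. *Gstt2*, of the theta class, had an intergenic site 2635 to 2827 bp upstream of its TSS in all 4 lists, with scores of 57 in WT muscle (top 11.3%) versus 45 in ERRα 3SA muscle (top 22.9%), and 203 in WT liver (top 7.1%) versus 178 in ERRα 3SA liver (top 10.5%). Its neighbour *Gstt1* had a liver site, 5649 bp upstream in WT and 5886 bp in ERRα 3SA, that scored 168 in WT (top 9.03%) and 260 in ERRα 3SA (top 6.4%), over the variant element shown above.

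The mu class was bound at many sites. *Gstm6* reached the top 5.97% in WT muscle with a score of 83 at an intronic site, where both liver lists held lower-ranked peaks. The centres lay 1455 bp downstream of the TSS in WT muscle, 1744 bp in ERRα 3SA liver and 1938 bp in WT liver. Those of WT muscle and WT liver were thus more than 300 bp apart and did not count as shared. An intergenic site 6378 bp upstream of *Gstm6* scored 143 in WT liver (top 11%) against 202 in ERRα 3SA liver (top 9.24%). *Gstm1* was bound in all 4 lists, at the top 24.6%, 23.7%, 28.5% and 19.3% of WT muscle, ERRα 3SA muscle, WT liver and ERRα 3SA liver. Single-genotype peaks with a score of at least 50 were found for *Gstm5* in WT muscle (57, top 11.3%) and for *Gstm3* in ERRα 3SA liver (68, top 30.1%). The alpha class members *Gsta1* and *Gsta2* were bound in all 4 lists without a single site shared between genotypes by the distance between centres. Their ranks were low, at best the top 38.6% in ERRα 3SA liver for each. *Gstp2* was bound in all 4 lists, with best peaks at the top 24.6%, 64.8%, 37.6% and 44.8% that were not all at the same site. The site of its ERRE had no WT muscle peak. It stood at the top 64.8% in ERRα 3SA muscle, and 37.6% in WT liver against 63.1% in ERRα 3SA liver. *Gstp3* was bound in both ERRα 3SA lists and *Gsto2* in WT muscle and ERRα 3SA liver. The best ERRα 3SA liver scores of *Gstp3* and *Gsto2* were 52 and 61. The microsomal transferases *Mgst1*, *Mgst2* and *Mgst3* had 6 peaks in all, and none of their sites was shared by a pair of lists.

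Peroxiredoxins were bound in a pattern that differed by member. *Prdx3*, the mitochondrial peroxiredoxin, had 1 site, in its first intron, 468 to 517 bp from the TSS. The site scored 83 in ERRα 3SA muscle (rank 3061, top 6.04%), and 44 in WT liver (top 45.2%) against 222 in ERRα 3SA liver (rank 2298, top 7.91%), and WT muscle held no *Prdx3* peak within 20 kb. *Prdx3* had the better rank in ERRα 3SA in liver and was found in ERRα 3SA alone in muscle, and its liver top percentage differed by more percentage points between genotypes than that of any other member bound in both, while as a ratio *Txndc11* differed more (0.138% in WT and 1.97% in ERRα 3SA). *Prdx6*, which reduces phospholipid hydroperoxides, showed no such order. Its site 14785 bp upstream scored 288 in WT liver (top 4.31%) against 186 in ERRα 3SA liver (top 9.92%), a second site in its first intron was shared by WT muscle (top 40.2%) and both liver lists, and ERRα 3SA muscle held none.

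*Prdx2*, a cytosolic peroxiredoxin, had a site 230 to 541 bp downstream of its TSS in all 4 lists, at the top 24.6% in WT muscle against 8.67% in ERRα 3SA muscle, and 37.6% in WT liver against 44.8% in ERRα 3SA liver. *Prdx1* and *Prdx6b* were bound in ERRα 3SA muscle alone, by 1 peak each, at the top 38.7% and 23.7%. *Prdx5*, whose product is found in mitochondria, peroxisomes and cytosol, has its TSS 11702 bp from that of *Esrra*, the gene of ERRα. WT muscle held 3 *Prdx5* peaks, ERRα 3SA muscle 2 and WT liver 1, none above a score of 44 and none shared. *Srxn1* encodes sulfiredoxin, which restores overoxidised peroxiredoxins. It was bound in all 4 lists, at the top 40.2% in WT muscle versus 11% in ERRα 3SA muscle, and 75% in WT liver versus 65% in ERRα 3SA liver. The site at the start of *Srxn1* was present in the last 3 of these lists, at the top 22.4% in ERRα 3SA muscle, and the ERRE shown above fell in its central 300 bp in WT liver only.

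The thioredoxin system was bound at both its mitochondrial and its cytosolic members. *Txn2*, mitochondrial thioredoxin, was bound at 9 sites by 16 peaks. The best one, 16059 to 16418 bp downstream of the TSS, was present in all lists with scores of 57 in WT muscle (top 11.3%) against 129 in ERRα 3SA muscle (rank 1773, top 3.5%), and 328 in WT liver (top 3.63%) against 355 in ERRα 3SA liver (top 4.1%). The ERRE shown above belongs to another site, at the 3′ end of the gene, which was bound in liver only (top 37.6% in WT and 24.9% in ERRα 3SA). A peak near the *Txn2* start scored 38 in ERRα 3SA muscle (top 37.9%), and 135 in WT liver (top 11.9%) against 151 in ERRα 3SA liver (top 12.6%), and was not listed in WT muscle. *Txnrd2*, the mitochondrial reductase, was not bound in WT muscle and stood at the top 38.7% in ERRα 3SA muscle, and 12.7% in WT liver against 19.3% in ERRα 3SA liver. The ERRE shown above lay in the central 300 bp of the ERRα 3SA liver peak 1199 bp upstream. It also lay inside the interval of the best WT liver peak, but outside its central 300 bp.

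*Txn1*, cytosolic thioredoxin, was bound within 1 kb of its TSS in WT muscle (57, top 11.3%), ERRα 3SA muscle (49, top 15.5%) and WT liver (62, top 28.5%). The ERRα 3SA muscle interval overlapped both others, but the centres lay more than 300 bp apart, so none counted as shared. ERRα 3SA liver held no *Txn1* peak within 20 kb. *Txnrd1*, the cytosolic reductase, was bound in liver only, at the top 75% in WT and 80.6% in ERRα 3SA. *Txnip*, whose product inhibits thioredoxin, had 1 peak, at the lowest score of ERRα 3SA muscle. *Glrx*, which encodes glutaredoxin and removes glutathione from protein thiols, had a single site in its first intron in all 4 lists, with scores of 39 in WT muscle (top 37.8%) versus 102 in ERRα 3SA muscle (rank 2378, top 4.7%), and 249 in WT liver (top 5.34%) versus 361 in ERRα 3SA liver (top 3.94%). *Glrx* was thus in the top 5.34% of all lists except WT muscle.

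Among the thioredoxin-domain proteins, *Txndc11* had the highest-ranked member peak of every list except ERRα 3SA liver, with scores of 2214 in WT muscle (rank 15) against 2831 in ERRα 3SA muscle (rank 21), and 2077 in WT liver (rank 30) against 571 in ERRα 3SA liver (rank 571). The authors' annotation puts this peak on a copy of ribosomal RNA (LSU-rRNA), 9577 to 9591 bp upstream of *Txndc11* and inside the gene *Zc3h7a*. Peaks on rRNA repeats numbered 13, 23, 17 and 8 in WT muscle, ERRα 3SA muscle, WT liver and ERRα 3SA liver, of which 5, 7, 5 and 0 were among the first 100 peaks. The part of the repeat in the rank of this peak was not tested. A separate site near the *Txndc11* start, outside any such repeat, was also bound in all 4 lists, at the top 7.1%, 2.27%, 7.54% and 4.99%. *Txndc5*, a protein disulfide isomerase of the endoplasmic reticulum, was bound in both ERRα 3SA lists and in neither WT list, at the top 8.67% in muscle and 34% in liver. *Txndc15* and *Txnl4a* had ERRα 3SA liver peaks with scores of 82 (top 24.9%) and 61 (top 34%) and no peak within 20 kb in WT liver.

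Of the superoxide dismutases, *Sod2*, the mitochondrial form, was bound in all 4 lists and was the only dismutase in the top 10% of any. The best peak near its start scored 118 in WT muscle (rank 951, top 3.74%) versus 170 in ERRα 3SA muscle (rank 1252, top 2.47%), and 62 in WT liver (top 28.5%) versus 61 in ERRα 3SA liver (top 34%). The muscle intervals overlapped, but their centres lay more than 300 bp apart, so they did not count as shared. *Sod1*, the cytosolic form, was bound in WT liver alone (56, top 32.6%), by a peak 338 bp downstream of its TSS, and *Sod3*, the extracellular form, in WT muscle alone (42, top 24.6%), inside the gene *Ccdc149*. In ERRα 3SA muscle a peak named for *Sod3* lay 20946 bp from the TSS, just beyond the limit. *Cat*, catalase of peroxisomes, was bound in its first intron at the top 19% in WT liver against 30.1% in ERRα 3SA liver, and had peaks at the lowest score in ERRα 3SA muscle.

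In the NRF2 axis, *Nfe2l2* itself was bound in all 4 lists, by 16 peaks at 8 sites. The intronic site 7213 bp downstream of its TSS, with the ERRE shown above, scored 57 in WT muscle (top 11.3%) against 44 in ERRα 3SA muscle (top 23.3%), and 85 in WT liver (top 20.6%) against 195 in ERRα 3SA liver (rank 2730, top 9.4%). A site 18062 to 18329 bp upstream was found in liver only, with scores of 89 in WT (top 19%) and 213 in ERRα 3SA (rank 2437, top 8.39%). The promoter of *Nfe2l2* held a lower peak in ERRα 3SA muscle (42, top 23.7%), WT liver (38, top 57.4%) and ERRα 3SA liver (60, top 37.5%). All *Nfe2l2* sites shared by the liver lists had a smaller top percentage in ERRα 3SA than in WT, although the rank number of the distal intronic site was lower in WT (5512) than in ERRα 3SA (7231). *Keap1*, whose product marks NRF2 for degradation, had 1 peak, in WT liver (top 57.4%). *Nqo1*, which encodes a quinone reductase, was bound in ERRα 3SA muscle alone (49, top 15.5%, 12334 bp downstream of the TSS), and *Hmox1*, which encodes heme oxygenase, by low peaks 15189 to 17093 bp upstream of the TSS, at the top 64.8% in ERRα 3SA muscle, and 72.8% in WT liver against 65% in ERRα 3SA liver.

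The members listed as mitochondrial and named in the peak lists (*Sod2*, *Prdx3*, *Prdx5*, *Txn2*, *Txnrd2* and *Gstk1*) were bound in 3 of 6 cases in WT muscle and in 5 of 6 in each other list, where 45.1% of all genes were bound in WT muscle and 63.5%, 39.2% and 49.2% in the other lists. *Glrx2* was also listed as mitochondrial but was named in no peak list, and it is not among the 6. *Gstk1* was bound in ERRα 3SA liver alone, at the top 80.6%. *Prdx3* and *Txnrd2* accounted for the difference between the muscle lists.

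In muscle, 10 of the 23 members bound in both genotypes had a site with centres within 300 bp of each other (43.5%, beside 40.1% of all such genes), and in liver 23 of 28 did (82.1%, beside 75.7%). Over peaks, 12 of the 46 WT muscle peaks (26.1%, interval 15.6 to 40.3%) and 12 of the 77 ERRα 3SA muscle peaks (15.6%, 9.15 to 25.3%) were shared between genotypes, beside 23.4% and 12.9% of all peaks within 20 kb of a TSS. In liver 35 of 62 WT peaks (56.5%, 44.1 to 68.1%) and 36 of 87 ERRα 3SA peaks (41.4%, 31.6 to 51.9%) were shared, beside 49.2% and 34.2%. Member peaks were thus more often shared between genotypes in liver than in muscle, as were peaks at large. Of the ERRα 3SA muscle peaks of members, more were shared with liver than with WT muscle, namely 20 of 77 with WT liver (26%, beside 12.3% of all peaks) and 21 of 77 with ERRα 3SA liver (27.3%, beside 15.4%). Of the 195 sites, 151 held a peak in 1 list only, 15 in both liver lists only, 11 in both liver lists and ERRα 3SA muscle but not in WT muscle, 10 in all 4, and 2 in both muscle lists only. The 11 sites missing from WT muscle alone were at *Gclc*, *Gpx1*, *Gpx4*, *Gss*, *Gstm1*, *Gstp2*, *Nfe2l2*, *Prdx3*, *Sod2*, *Srxn1* and *Txn2*, of which the *Sod2* interval overlapped a WT muscle peak with a more distant centre.

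For members bound in both genotypes the comparison of ranks depended on the measure. In muscle the best peak had the smaller top percentage in ERRα 3SA for 17 of 23 members (73.9%, beside 71% of all genes bound in both), and in liver for 12 of 28 (42.9%, beside 63.4%). The top percentage favours the longer list and the plain rank number the shorter one, so neither is free of list length. By plain rank number ERRα 3SA was ahead for 7 of 23 members in muscle (30.4%, beside 34.5%) and for 9 of 28 in liver (32.1%, beside 44.8%). By both measures ERRα 3SA muscle was ahead for *Gclc*, *Glrx*, *Gpx1*, *Prdx2*, *Srxn1*, *Txn2* and *Txndc2*. By both measures ERRα 3SA liver was ahead for *Gclm*, *Glrx*, *Gsta1*, *Gsta2*, *Gstm1*, *Gstt1*, *Nfe2l2*, *Prdx3* and *Txndc12*. *Glrx* was the member ahead in both tissues, although its liver rank numbers were close (1165 in WT and 1143 in ERRα 3SA).

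**Figure D3:**
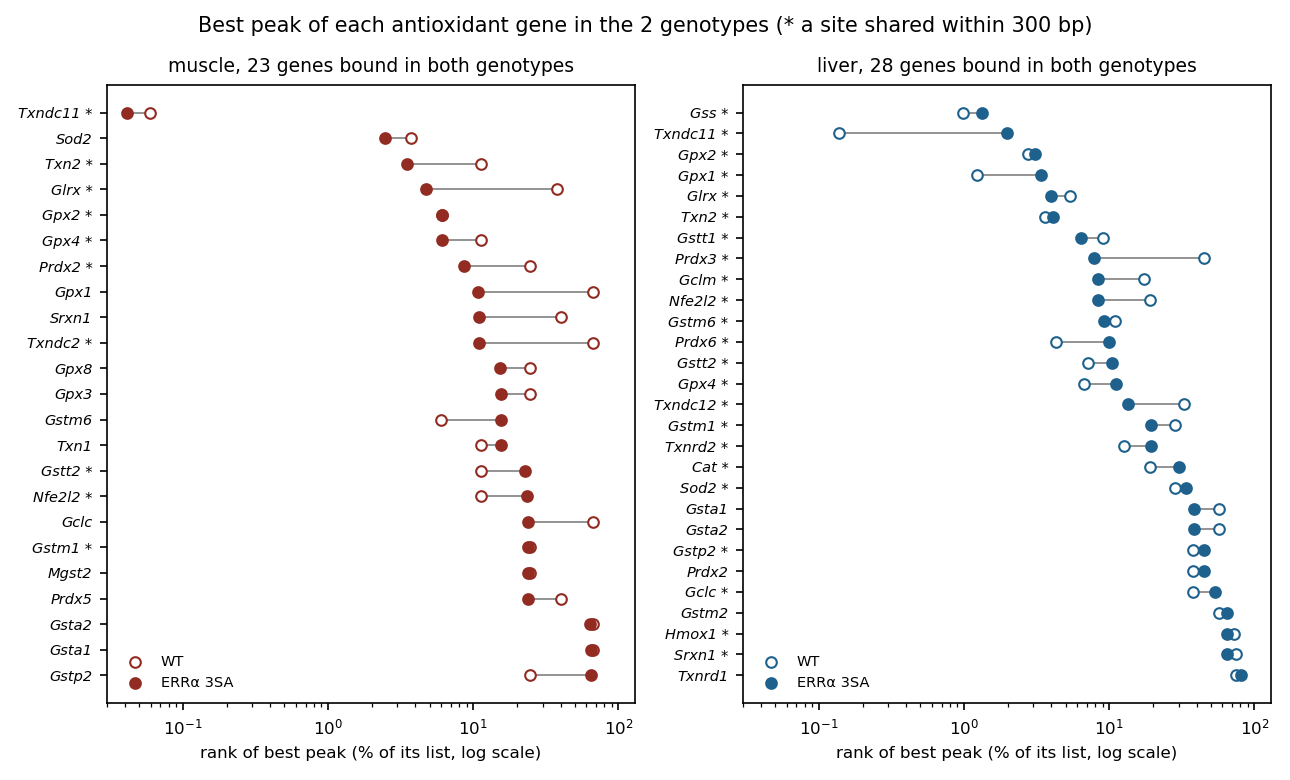
Rank of the best peak within 20 kb, as a percentage of its list on a log scale, in WT (open) and ERRα 3SA (filled) for the 23 members bound in both genotypes of muscle and the 28 of liver, ordered by ERRα 3SA rank. An asterisk marks genes with a site shared within 300 bp. In muscle the filled points are mostly to the left, as for *Glrx* (37.8% in WT and 4.7% in ERRα 3SA), while in liver *Prdx3* moved to the left (45.2% to 7.91%) and *Gpx1* and *Prdx6* to the right.

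Members called in a single genotype mostly had low peaks. The medians and counts of this paragraph were not computed over all genes, so they do not set the members apart from other genes. In muscle the median rank of the best peak was the top 38.7% for the 21 members of ERRα 3SA alone, against 15.5% for the 23 bound in both genotypes, and the top 40.2% against 24.6% in WT. In liver it was 53.4% against 12.3% in ERRα 3SA and 45.2% against 19% in WT. A score of at least 50 was reached in ERRα 3SA alone by 3 muscle members, *Gpx5*, *Prdx3* and *Txndc5*, and by 7 liver members, *Gpx5*, *Gstm3*, *Gsto2*, *Gstp3*, *Txndc15*, *Txndc5* and *Txnl4a*. In WT alone it was reached by *Gstm5* in muscle and by *Sod1* and *Txn1* in liver. A peak beyond 20 kb was named for the same gene in the other genotype for 5 of 10 muscle members bound in WT alone and 3 of 21 bound in ERRα 3SA alone, and for 1 of 6 and 2 of 17 in liver. For members bound in WT alone, the other list was the longer one. The member peaks closest to the limit lay 19011 bp (*Cat*) and 18878 bp (*Gpx3*) from the TSS on the inside, and 20234 bp (*Mgst2*) and 20307 bp (*Nfe2l2*) on the outside.

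Most member peaks lay in introns or between genes. Introns held 21 of 46, 33 of 77, 28 of 62 and 41 of 87 member peaks in WT muscle, ERRα 3SA muscle, WT liver and ERRα 3SA liver, and promoters 4, 6, 7 and 9. The intron shares were 45.7%, 42.9%, 45.2% and 47.1%, beside 45.7%, 47%, 48.3% and 48.2% of all peaks within 20 kb, and the promoter shares 8.7%, 7.79%, 11.3% and 10.3%, beside 11.9%, 8.18%, 11% and 12%. Within 1 kb of the TSS lay 30.4%, 22.1%, 32.3% and 24.1% of member peaks, beside 26.2%, 17.4%, 20.6% and 22.6% of all, with the widest gap in WT liver. High-ranked member peaks were found both at starts, as for *Sod2*, *Glrx*, *Prdx3* and *Txndc11*, and far from them, as for *Txn2*, *Gpx2*, *Gclm* and *Prdx6*. The centre of 6, 12, 5 and 8 member peaks lay within another coding gene and outside the member itself.

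**Figure D4:**
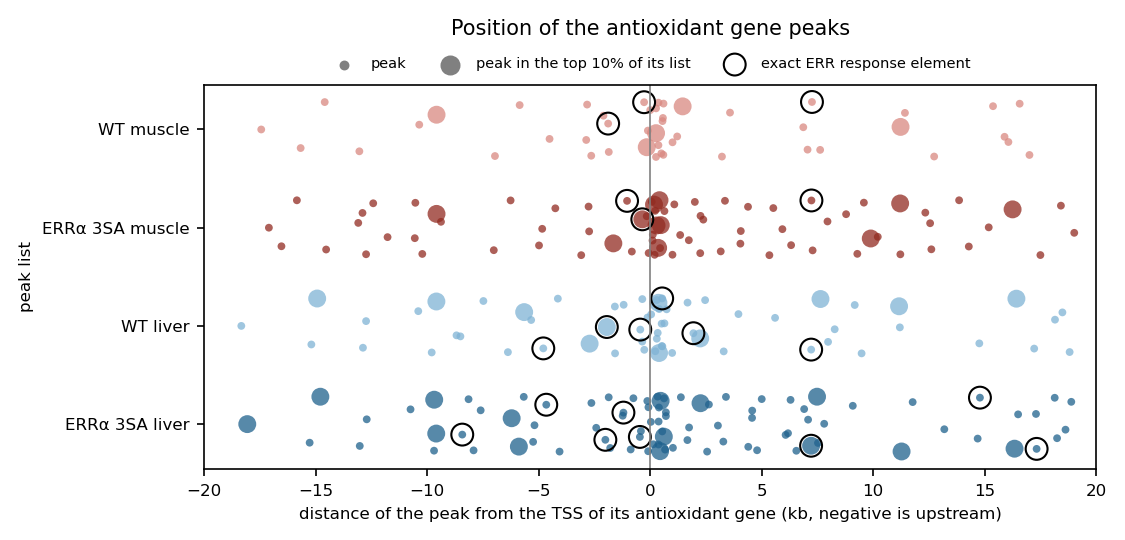
Distance of each member peak from the TSS of its gene (kb, negative values upstream), by list. Large points are peaks in the top 10% of their list and rings mark an exact ERRE in the central 300 bp. Rings occur on 3, 3, 6 and 8 peaks in WT muscle, ERRα 3SA muscle, WT liver and ERRα 3SA liver, and most large points have none.

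The exact ERRE was found in 3 of 46 member peaks in WT muscle (6.52%, interval 2.24 to 17.5%) versus 3 of 77 in ERRα 3SA muscle (3.9%, 1.33 to 10.8%), and 6 of 62 in WT liver (9.68%, 4.51 to 19.5%) versus 8 of 87 in ERRα 3SA liver (9.2%, 4.73 to 17.1%). The shares over all peaks within 20 kb were 4.45%, 4.84%, 15.1% and 14.9%, and those in windows 5 kb to either side of the member peaks were 0%, 2.6%, 2.42% and 1.72%. The element was at most as frequent in liver member peaks as in liver peaks at large. It was concentrated in shared peaks. Between the muscle genotypes it was in 3 of 12 shared and 0 of 34 unshared WT peaks, and in 2 of 12 and 1 of 65 ERRα 3SA peaks. In liver it was in 6 of 35 shared and 0 of 27 unshared WT peaks, and in 6 of 36 and 2 of 51 ERRα 3SA peaks. All peaks within 20 kb showed the same order, with 12.3% of shared and 2.03% of unshared WT muscle peaks, 12.2% and 3.76% in ERRα 3SA muscle, 23.2% and 7.33% in WT liver, and 23.6% and 10.3% in ERRα 3SA liver. By number of lists, the element was at 3 of 151 member sites seen in 1 list, 2 of 21 in 2 lists, 3 of 13 in 3 lists and 3 of 10 in all 4. A site counted when the window of any of its peaks held the element. Sites in more lists thus had more windows searched, and part of this rise follows from the counting.

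The shorter core AAGGTCA, which is part of the ERRE and was searched after the other results were known, was in 23.9% of member peaks in WT muscle against 14.3% in ERRα 3SA muscle, and 29% in WT liver against 32.2% in ERRα 3SA liver. All peaks within 20 kb gave 13.8%, 15.2%, 35.8% and 35.5%, and the windows beside the member peaks 4.35%, 5.84%, 8.87% and 6.32%. Several of the best-ranked member peaks, such as those of *Gpx1*, *Gpx2* and *Glrx*, lacked even this core in their central 300 bp.

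**Figure D5:**
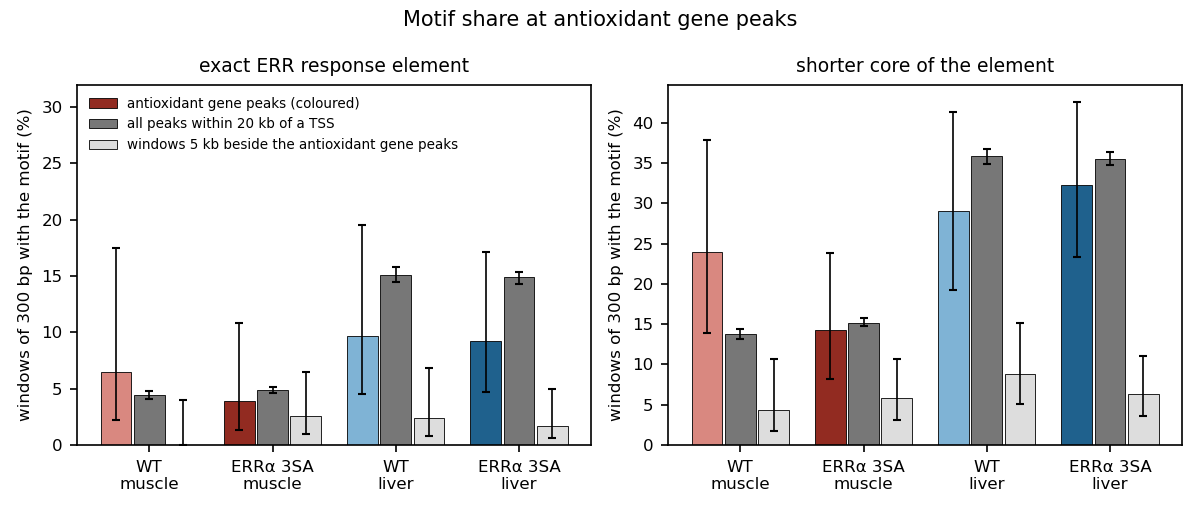
Share of 300 bp windows (%) with the exact ERRE (left) and with its shorter core AAGGTCA (right) at the antioxidant gene peaks (coloured), at all peaks within 20 kb of a TSS (dark grey) and in windows 5 kb beside the antioxidant gene peaks (light grey), with 95% Wilson intervals. At the member peaks and at all peaks the liver bars are higher than the muscle bars for the exact element, which does not hold for the windows beside the peaks, and in liver the member peaks (9.68% and 9.2%) are below all peaks (15.1% and 14.9%).

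In the RefSeq promoter windows, from 250 bases before to 50 after each start, 87 windows matched 64 of the genes that meet the rule. The exact ERRE, searched on both strands, was in 0 of the 87, beside 0.423% of all 32851 windows. The ERRE of the *Gpx4* promoter peak falls outside this window. The core of the antioxidant response element, written TGACNNNGC and also searched after the other results were known, was in 13 of the 87 member windows (14.9%, beside 12.4% of all), among them those of *Gclm*, *Nfe2l2*, *Prdx1*, *Sod1*, *Srxn1* and *Txnrd1*. Under the member peaks it was in 17.4% in WT muscle versus 19.5% in ERRα 3SA muscle, and 16.1% in WT liver versus 18.4% in ERRα 3SA liver, beside 13.9%, 14.1%, 13.9% and 13.9% of all peaks within 20 kb and 9.78%, 6.49%, 8.06% and 10.9% of the windows beside the member peaks. A match describes the letters only.

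Related genes outside the rule were bound in both tissues. Of 29 genes listed for glutathione turnover, NADPH supply, other redoxins and repair enzymes, NRF2 partners, iron storage and sestrins, 19 were bound in WT muscle against 22 in ERRα 3SA muscle, and 16 in WT liver against 18 in ERRα 3SA liver, beside the 45.1%, 63.5%, 39.2% and 49.2% of all genes bound in these lists. *Oplah*, the 5-oxoprolinase that returns glutamate from glutathione breakdown, was at the top 0.574%, 0.288%, 1.14% and 0.348% of the lists in this order, by peaks close to its TSS. *Idh2*, mitochondrial isocitrate dehydrogenase and a source of NADPH, was at the top 1.91%, 0.839%, 2.01% and 0.795% by a distal upstream site. *Msrb2*, a mitochondrial methionine sulfoxide reductase, was at the top 1.16%, 0.31%, 1.64% and 2.16%. Each of these 3 related genes ranked above every member except *Txndc11* in both muscle lists. *Glrx3* was at the top 0.142% in WT muscle and 4.85% in WT liver, both by a peak at its start, while no peak named for *Glrx3* lay at its start in the ERRα 3SA lists. The cystine carrier gene *Slc7a11* and *G6pdx*, of the pentose phosphate pathway, had no peak within 20 kb in any list.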

How the data were processed

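ERRα ChIP-seq peak lists of WT and ERRα 3SA muscle and liver were used, 1 per genotype and tissue. Per the labels and methods, the authors used Trimmomatic 0.36 for trimming and BWA-MEM 0.7.12 for alignment to mm10, removed duplicates with Picard 2.0.1, called peaks against input DNA with MACS2 2.1.1.20160309, removed mitochondrial and scaffold peaks and annotated the rest with HOMER 4.9.1. The deposited score is a number without a fixed range given by the authors' peak caller, the deposited GC and CpG contents are fractions of the interval, and distances from the TSS are given in bp. Input samples were not used here. HOMER was not run, and the authors' supplementary tables were not used.

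The members and lists were chosen with earlier results of these data known. A gene was bound where a peak named for it lay within 20 kb of the TSS. Sharing required centres at most 300 bp apart, and a site joins member peaks linked in this way. Ties were given the best rank, and in lists cut to equal length tied peaks were kept in list order. Shares are set beside the same share over all 19188 gene names or all peaks within 20 kb. Sequences and 1-based positions are from GRCm38, where the GC content of all member peaks equalled the deposited fraction within 0.001. Promoter windows are from the RefSeq table of the same build. The central 300 bp of each interval was searched on both strands. Genes named are those listed singly in the rule, those bound in all 4 lists, the 10 best per list, those with a score of at least 50 in 1 genotype of a tissue and no peak within 20 kb in the other, and unbound ones. Others were named after their values were seen. Alternatives were other distances, scores, list lengths, centre distances, motifs and member names. The searches for AAGGTCA and TGACNNNGC and the count of rRNA repeats were chosen after seeing the data. Overlap and motif searches were tested on simulated data. The tools were matplotlib 3.10.9, pysam 0.24.0, scipy 1.17.1, numpy 2.4.6, pandas 2.3.3 and Python 3.11.15. The position of some peaks relative to other genes is not reported here.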

Additional observations from a re-analysis of the deposited data

Results flagged for a closer look

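The genotypes called a gene in opposite ways in the tissues for 4 members, *Gpx7*, *Gsto2*, *Txndc15* and *Txnl1*, which were bound in WT alone in muscle and in ERRα 3SA alone in liver. The opposite pattern, ERRα 3SA alone in muscle and WT alone in liver, was found for 0 members. The counts were thus 4 and 0 of 66 members, beside 444 and 541 of all 19188 gene names. Both patterns were rare among all genes, and the member counts are too small to set 4 against 0. With 1 library per genotype and tissue this difference was not tested. *Gpx7* had the same site in both lists, at the top 40.2% of WT muscle and the top 80.6% of ERRα 3SA liver, while the muscle and liver sites of the other 3 genes were not shared. The ERRα 3SA liver peak of *Txnl1* (score 35) had a counterpart within 300 bp in WT liver (score 49) that the authors' annotation gives to the neighbouring gene *Wdr7*, so the call for *Txnl1* in liver follows from the naming of the peak. In ERRα 3SA muscle, peaks named for *Gsto2* and *Txnl1* lay beyond the limit, 26234 bp and 35805 bp from the TSS.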

How the results depend on the processing

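Of 118 alternative values, 76 stayed close to the reported ones and 42 moved. A count or median was called close when it differed at most 1.5-fold from the reported value. A share was called close when it lay inside the Wilson interval of the reported share. These limits are wide. Within 5 kb, 22 members were bound in WT muscle (reported 33) and 30 in ERRα 3SA muscle (reported 44). In liver they were 25 in WT (reported 34) and 31 in ERRα 3SA (reported 45). All 4 counted as close. With a score of at least 50, bound members in WT muscle, ERRα 3SA muscle, WT liver and ERRα 3SA liver numbered 10, 14, 20 and 28, and with at least 100, 2, 4, 12 and 18. In muscle the members of both genotypes, ERRα 3SA alone and WT alone were then 5, 9 and 5 (at least 50) or 2, 2 and 0 (at least 100), in liver 18, 10 and 2 or 12, 6 and 0, and those of all 4 lists 5 or 1. Gene counts at other scores and distances were not made over all genes, so they do not set the members apart. Of member peaks, 23.9%, 22.1%, 46.8% and 50.6% scored at least 50, beside 18.2%, 17.7%, 42.3% and 47.4% of all peaks within 20 kb. At equal list length, with tied peaks kept in list order, 28 members were bound in ERRα 3SA muscle, and 10 in ERRα 3SA alone in each tissue. In muscle WT alone then held 11, where the whole lists gave ERRα 3SA alone the larger number. Within 5 kb, 12 muscle members were in both genotypes, 11 liver members in ERRα 3SA alone and 10 members in all 4 lists, and the median best rank in WT muscle was the top 40.2%. Within 50 kb, 6 muscle members were in WT alone. Shared peaks were 41.3% of WT muscle member peaks for centres within 1000 bp, and 24.2% and 17.2% of those of WT and ERRα 3SA liver within 100 bp. Where both peaks scored at least 50 they were 45.5%, 29.4%, 82.8% and 54.5%, in the order of lists above. The ERRE was in 18.2% of WT muscle member peaks scoring at least 50, and AAGGTCA, chosen after seeing the data, in 23.9%, 14.3%, 29% and 32.2%. No paired analysis was possible because each genotype and tissue has 1 library and the labels give no replicate numbers. Read depth is unknown, so an absent peak may lie below the detection limit, and ties at the lowest score make many muscle ranks coarse.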
